A study of Mus musculus with 2 samples.

Results

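The mouse Cyp2c subfamily encodes cytochromes P450 of the endoplasmic reticulum, and 8 of its genes were followed here in liver: Cyp2c29, Cyp2c37, Cyp2c38, Cyp2c39, Cyp2c50, Cyp2c54, Cyp2c55 and Cyp2c70. They were taken by name, and each was read by 1 probe set naming that gene alone, so the subfamily is represented by 8 of 22690 probe sets and 8 of 12393 named genes. The liver RNA came from female mice with a C57BL/6J background, 2 months old and homozygous for the apoE knockout, a genotype shared by both groups. For 4 weeks one group was fed chow with olive oil added at 10% (w/w). The other was fed the same chow with, also at 10% (w/w), olive oil that had been enriched in maslinic acid, a triterpene of the olive fruit. The study had 6 mice per diet and the series holds 1 Affymetrix array per diet. The sources used here do not say if that array carried pooled RNA or the RNA of a single mouse. With 1 array per diet there was no test between the diets and no replicate check of any value below, and the number of arrays limits the precision.

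Cytochromes P450 of this subfamily insert oxygen into drugs, steroids, bile acids and polyunsaturated fatty acids, drawing electrons from P450 oxidoreductase and cytochrome b5. Several members are epoxygenases that turn arachidonic and linoleic acid into signalling epoxides, which epoxide hydrolases then break down. In liver the genes are transcribed chiefly in hepatocytes, under HNF4A and other liver factors, and some respond to the xenobiotic receptors CAR and PXR, which also drive Cyp2b and Cyp3a genes.

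The members lie in 1 cluster on chromosome 19. In the RefSeq gene table of assembly GRCm38.p6, used here for gene order, the cluster held 14 protein-coding Cyp2c genes and 4 Cyp2c pseudogenes, and all 8 members were among the former. The order along the chromosome was Cyp2c55, Cyp2c29, Cyp2c39, Cyp2c38, Cyp2c37, Cyp2c54, Cyp2c50 and Cyp2c70, by the lower coordinate of each gene. The gene model of Cyp2c39 spans that of Cyp2c38, and its second listed start lies beyond the start of Cyp2c38, so the order of these neighbours depends on the start used. Such tandem copies are closely alike, and how far a probe set named for 1 gene also reads its relatives was not tested.

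The RefSeq promoter table (GRCm38.p6) held start sites for 7 of the 8 members, with 2 for Cyp2c39 and Cyp2c54 being named only. The 150 bases before the start are shown for 5 members measured on the arrays, to let a reader see how alike neighbouring copies are and how far Cyp2c70 departs from them. Capitals mark CAAAGTC, a core of the sequence that HNF4A is known to bind, or, in Cyp2c38 and Cyp2c50, the bases aligned with it in a near relative. The windows are chr19:39286935-39287084 on the plus strand for Cyp2c29, chr19:39463076-39463225 on the minus strand for Cyp2c38, chr19:39992274-39992423 on the plus strand for Cyp2c37, chr19:40089529-40089678 on the plus strand for Cyp2c50 and chr19:40187287-40187436 on the minus strand for Cyp2c70.
Cyp2c29: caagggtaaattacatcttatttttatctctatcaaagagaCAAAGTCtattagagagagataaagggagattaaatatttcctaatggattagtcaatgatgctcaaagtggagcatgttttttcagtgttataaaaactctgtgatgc
Cyp2c38: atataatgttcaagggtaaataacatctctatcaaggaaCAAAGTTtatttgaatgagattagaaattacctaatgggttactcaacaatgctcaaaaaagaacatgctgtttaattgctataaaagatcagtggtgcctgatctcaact
Cyp2c37: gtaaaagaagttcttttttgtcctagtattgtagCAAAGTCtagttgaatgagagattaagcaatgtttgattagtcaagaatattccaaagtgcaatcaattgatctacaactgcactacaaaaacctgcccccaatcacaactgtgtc
Cyp2c50: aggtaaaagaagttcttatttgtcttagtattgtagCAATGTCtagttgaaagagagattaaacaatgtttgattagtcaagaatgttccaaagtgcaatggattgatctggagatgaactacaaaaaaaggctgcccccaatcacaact
Cyp2c70: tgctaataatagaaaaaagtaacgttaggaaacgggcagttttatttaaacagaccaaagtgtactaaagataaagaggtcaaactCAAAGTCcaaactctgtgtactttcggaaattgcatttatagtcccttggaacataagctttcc

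Over the 250 bases before the start, Cyp2c37 and Cyp2c50 were the most alike, with 84.3% of aligned positions identical. Cyp2c29 and Cyp2c38 shared 68.8%, and Cyp2c70 shared between 49.2% and 53.1% with the other members' starts. Cyp2c55, whose window is not shown, was nearly as far from the others, at 51.9% to 55.8%. Unrelated promoters were not aligned the same way, so the identity that unrelated sequences reach is not known here. Across all 28 pairs of member starts the median was 55.3%. The letters CAAAGTC, searched on both strands after the sequences had been seen, occurred in the 250 bases of 5 of the 8 member starts, which belong to Cyp2c29, Cyp2c37, Cyp2c39 (both starts) and Cyp2c70. Of all 32851 promoters of the same length in the table, 3.84% held them, and the member starts are related copies, so they are not independent draws. The aligned bases were counted from 1 at the 5′ end of CAAAGTC. Those of Cyp2c38 differed from those of Cyp2c29 by C7T, and those of Cyp2c50 from those of Cyp2c37 by A4T. Cyp2c37 held another copy of CAAAGTC, 184 to 178 bases before its start and outside the window shown. Cyp2c50 was compared with the nearer copy only. The TATA-type letters TATAAA were searched in the same way as CAAAGTC and did not overlap any CAAAGTC match. They occurred before 4 of the 8 starts (Cyp2c29, Cyp2c38, Cyp2c55 and Cyp2c70) and in 12.4% of all promoters. The match before Cyp2c70 lay on the strand opposite to the gene, and the others lay on the strand of the gene. A match describes the letters only and marks no bound site.

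Before the members' values, the arrays were checked against their labels. Xist, read for the stated female sex, had signals of 2866.6 with olive oil and 2136.0 with maslinic acid on its brightest probe set. Its others read 2251.7 and 2486.2, and 169.9 and 88.7, so they gave no single direction. Actb, also checked, read 7594.5 and 6530.8 on its brightest probe set and 993.3 and 941.2 on its other. Apoe, the gene disrupted in both groups, had a signal of 407.7 on the olive oil array and 7630.0 on the maslinic acid array. An 18.71-fold difference between arrays labelled with the same genotype goes against the labels. Where its probes lie relative to the disrupted part is not known here, and the reason for the difference was not tested. Every direction below is therefore between the arrays as labelled. Of 10 hepatocyte markers, all 10 were measured and all 10 read lower with maslinic acid than with olive oil, at a median log2 ratio of -0.14, and their summed signal was 89154.9 against 98429.8. All 10 had a mean signal above 2000, where 70.9% of 478 measured genes read lower, at a median of -0.058. How much of the markers' shift belongs to bright genes in general was not tested, and their ratios were not recomputed with other scalings. Cholangiocyte and kidney tubule markers reached at most 34.4 and 17.9 on either array, and of the intestinal epithelium list Cdx2, Cdh17 and Vil1 were at most 9.8, while Fabp2 read 1407.2 and 1320.2 and Lgals4 read 86.1 and 64.8. Markers of other liver cells differed as well: all 5 measured endothelial markers were lower (median -0.166), 5 of 6 stellate cell markers were higher (median 0.21) and 6 of 9 macrophage markers were higher (median 0.071), although Marco among them read 338.1 and 84.6. Of the 2 measured lymphocyte markers, Ighm read 322.9 and 936.2 and Ptprc read 367.0 and 333.4, so they gave no single direction. The lymphocyte markers Cd3e, Cd79a and Cd8a were at most 17.6 on either array. The erythroid marker Alas2 read 94.1 and 150.9, while Hba-a1 was at most 2.7. In liver RNA, fewer cells of a type and less RNA per cell cannot be told apart. The part of these marker differences in the values below was not tested.

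The Cyp2c genes differed little between the arrays. Of the 8 members, 6 were measured, meaning a MAS5 signal of at least 80 on 1 array or more, and these 6 lay between 1.12-fold lower and 1.06-fold higher with maslinic acid. None of the 6 was 1.5-fold apart, where 3.05% of all 5911 measured genes were, and none was 2-fold apart, against 0.609%. Counted at 1.1-fold, a size chosen after the values were seen, 1 of the 6 was apart (Cyp2c50), against 45.2% of all measured genes. These shares take in genes down to the minimum of 80, whereas the 6 measured members all had a mean signal above 1000. The shares among genes of like signal were not counted at these sizes. The median log2 ratio of the 6 (maslinic acid over olive oil) was -0.065, beside -0.01 over all measured genes. As deposited, 2 members were higher and 4 lower, but the split was 1 and 5 with equal medians and 3 and 3 with quantile or loess scaling.

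**Figure D1:**
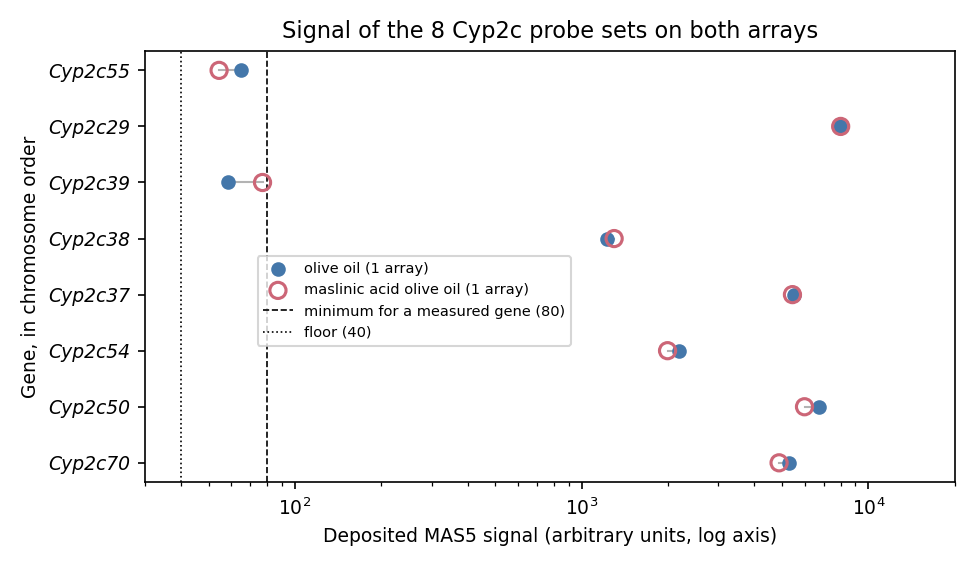
Deposited MAS5 signal (arbitrary units, log axis) of each Cyp2c gene on the olive oil array (filled) and the maslinic acid olive oil array (open), 1 probe set and 1 array each, in chromosome order. For the 6 measured genes the pairs of points lie within 1.12-fold of each other, and Cyp2c55 and Cyp2c39 lie between the floor of 40 and the minimum of 80 on both arrays.

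The members best known as arachidonic acid oxygenases are Cyp2c29, Cyp2c37, Cyp2c38, Cyp2c50 and Cyp2c54. Cyp2c29, an epoxygenase and a classical gene of the drug-induced liver, had a signal of 7971.8 on the olive oil array and 8001.6 on the array labelled maslinic acid. Its log2 ratio was 0.005, the closest to 0 of any member, and it was -0.001 with equal medians and 0.11 with quantile scaling. Cyp2c37, whose enzyme hydroxylates arachidonic acid, read 5496.6 and 5432.8, a log2 ratio of -0.017 that turned to 0.052 once the trend of the ratio on signal was removed.

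Cyp2c38, another arachidonic acid oxygenase, read 1229.1 and 1297.8 and was thus 5.59% higher with maslinic acid, a log2 ratio of 0.078. It was the highest of the measured members as deposited. Cyp2c50 and Cyp2c54, neighbours in the cluster whose enzymes are epoxygenases of arachidonic and linoleic acid, were both lower on that array. Cyp2c50 read 6712.3 and 5985.5, 10.83% lower, a log2 ratio of -0.165, which was the lowest of the measured members. Cyp2c54 read 2187.0 and 1992.9, 8.88% lower, a log2 ratio of -0.134.

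Cyp2c70 differs from the others in its known substrate, since its enzyme makes the muricholic acids that set mouse bile apart from human bile. Its signal was 5276.1 on the olive oil array and 4879.9 on the array labelled maslinic acid, 7.51% lower, a log2 ratio of -0.113. The 3 members at one end of the cluster, Cyp2c54, Cyp2c50 and Cyp2c70, were thus the 3 lowest of the measured members, a grouping noticed after the values were seen. They were also below 0 under the 3 other scalings, the alternatives that could change them, with Cyp2c70 nearest to 0 at -0.047 once the loess trend was removed. Equal medians moves every ratio by the same small amount (Cyp2c70 from -0.113 to -0.119), so only quantile and loess scaling could have turned their sign. Cyp2c37 and Cyp2c50, the pair with the most similar promoters, had log2 ratios of -0.017 and -0.165.

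Cyp2c55 and Cyp2c39 did not reach the minimum. Cyp2c55, known for its expression in the colon, read 64.7 on the olive oil array and 54.4 on the other, a log2 ratio of -0.25. Cyp2c39, whose enzyme oxidises retinoic acid, read 58.4 and 77.1, a log2 ratio of 0.40. With a floor of 80 both ratios are 0, so no direction is given for either gene.

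**Figure D2:**
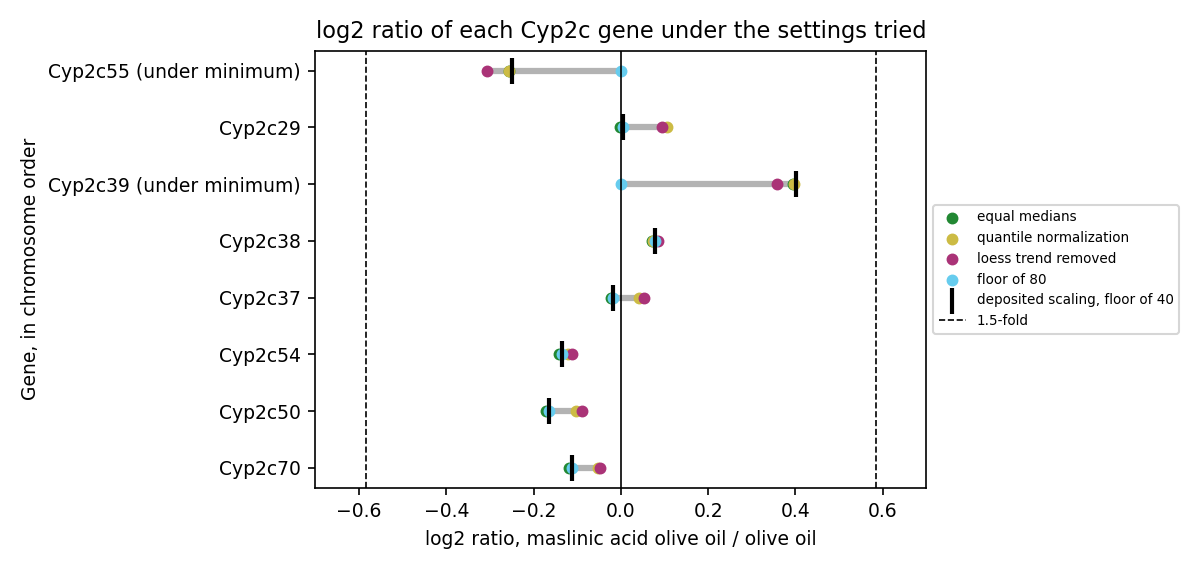
log2 ratio of each Cyp2c gene, maslinic acid olive oil array over olive oil array; the tick is the deposited scaling with a floor of 40, coloured points are 4 of the alternatives, and the grey bar spans all 9. Every value lies inside the dashed 1.5-fold lines, Cyp2c29 and Cyp2c37 change sign with the scaling (Cyp2c29 from 0.005 to -0.001, Cyp2c37 from -0.017 to 0.052), and the 2 genes under the minimum go to 0 with a floor of 80.

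The spread between repeat probe sets of a gene was set beside these ratios. No member has a second probe set, so the spread was taken from other genes. Among 230 genes with at least 2 probe sets of mean signal 1000 or more, the log2 ratios of a gene's own probe sets had an SD of 0.153. The SD among the 6 measured members, which are all above that signal, was 0.094, which is less than that between repeat probe sets of a single gene. The latter spread is technical and shares the hybridisation, and it holds no variation between mice. The 973 measured genes with a mean signal of 1000 or more had a median of -0.035 on the same scale, and 60.8% read lower with maslinic acid, as did 4 of the 6 members. At 2000 or more, where 5 of the 6 members lay, 478 genes had a median of -0.058 and 70.9% read lower. For the 108 genes with at least 2 probe sets at 2000 or more, the SD between a gene's own probe sets was 0.135. Of the 973 genes, 77.7% had a log2 ratio no further from 0 than that of Cyp2c50, and of the 478 genes 78.7% did.

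**Figure D3:**
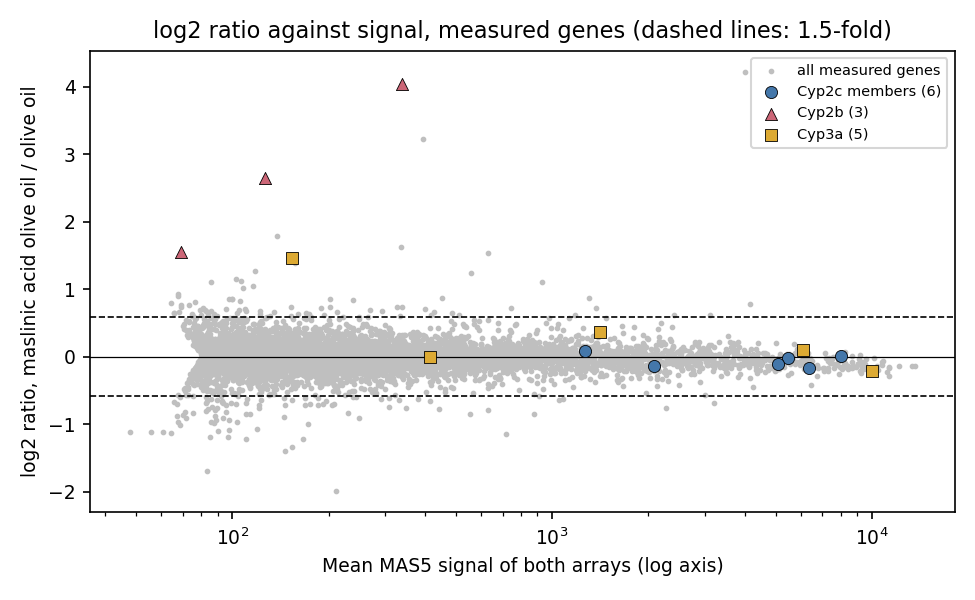
log2 ratio (maslinic acid olive oil over olive oil) against the mean MAS5 signal of both arrays (log axis) for all 5911 measured genes, with the Cyp2c, Cyp2b and Cyp3a genes marked. The 6 Cyp2c points lie between -0.165 and 0.078, inside the band of genes of like signal, while the 3 Cyp2b points, whose olive oil signals were under the floor of 40 so that their ratios are bounds, lie above 1.5.

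Of the other Cyp2c genes, 3 were named alone by a probe set. Cyp2c68, from the same cluster, read 6219.5 and 6188.4, a log2 ratio of -0.007. Cyp2c23, an epoxygenase gene outside the cluster that is also called Cyp2c44, read 2906.6 and 2694.6, a log2 ratio of -0.109. Cyp2c65 was under the floor on both arrays, at 6.3 and 5.8. The measured relatives outside the 8 members thus lay within the range of the members.

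The Cyp2b and Cyp3a genes are the nearest comparison, since CAR and PXR act on all 3 subfamilies. The 3 measured Cyp2b genes all lay under the floor of 40 on the olive oil array and counted as measured through the other array alone, which makes them at least 2-fold higher there by construction, so their number is no result. Cyp2b9 read 18.7 with olive oil and 660.4 with maslinic acid, and Cyp2b13 read 1.9 and 252.2. Cyp2b10, a standard reporter of CAR activity, read 21.4 and 117.1 on its brightest probe set, at least 2.93-fold higher, and 22.4 and 88.3 on another, at least 2.21-fold higher. Cyp2c29 and Cyp2c37, also known to respond to CAR, had ratios of 1.004 and 0.988 on the same arrays. Among 5 measured Cyp3a genes the median log2 ratio was 0.098, with Cyp3a16 at 1.47, Cyp3a13 at 0.36, Cyp3a25 at 0.098 and Cyp3a11, a main target of PXR, at -0.215. The difference between the subfamilies could not be tested with 1 array per diet.

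Genes that act with CYP2C enzymes were read beside the same background of 3.05% at 1.5-fold. Of the 12 measured genes for electron and haem supply, 1 was 1.5-fold higher and none 1.5-fold lower, with a median log2 ratio of -0.014. That gene was Cpox, an enzyme of haem synthesis, at 0.70, but its other probe set gave -0.284. The others named by size were the haem synthesis genes Alad at -0.216 and Fech at -0.197, and the cytochrome b5 reductase gene Cyb5r3 at 0.164. Of the 11 measured arachidonic acid oxygenases and epoxide hydrolases none was 1.5-fold apart and the median was -0.019. The furthest from 0 were Cyp2j6, an epoxygenase gene, at 0.448 with dim signals of 78.8 and 107.5, the hydroxylase genes Cyp4f13 at -0.35 and Cyp4a14 at -0.126, and the prostaglandin D synthase gene Ptgds at 0.301. The epoxide hydrolase genes Ephx1 and Ephx2, which take up the products of the epoxygenases and are named here after their values were seen, lay at -0.019 and -0.053.

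Of the transcription factors of hepatic P450 genes, 22 were measured, 14 were lower and 8 higher, none was 1.5-fold apart, and the median log2 ratio was -0.15. The furthest from 0 were Rxrb, a retinoid X receptor, at -0.562, Stat5a at -0.455, Foxa3 at -0.425 and Bcl6, a repressor, at -0.415. Stat5a had dim signals of 92.5 and 67.5, and Bcl6 read 162.7 and 122.0. The other probe set of each of these 2 genes lay under the floor on both arrays. The genes of CAR and PXR themselves, Nr1i3 and Nr1i2, named after their values were seen, had log2 ratios of 0.045 and -0.01, though a dimmer probe set of Nr1i2 gave 0.502. Hnf4a, whose product is the factor named above for CAAAGTC, gave -0.223 on its brightest probe set and 0.641 on another, so the arrays gave no single direction for it.

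Among 19 measured CAR and PXR targets outside Cyp2c the median log2 ratio was -0.021. The 3 that were 1.5-fold higher were the Cyp2b genes, which passed the minimum through the maslinic acid array alone, so their number is again no result. The only gene 1.5-fold lower was the growth arrest gene Gadd45b at -0.988, with dim signals of 117.0 and 59.0. The 13 bile acid genes measured beside Cyp2c70 had a median of 0.019 and none was 1.5-fold apart, with Akr1d1, a steroid reductase gene, at 0.483 (0.042 on its other probe set), Hsd3b7 at -0.213, the bile salt export pump gene Abcb11 at -0.14 and the conjugating enzyme gene Baat at 0.127.

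Several Cyp2c genes are known to be expressed most around the central vein of the liver lobule, so genes of both zones were set beside them. The 16 measured pericentral genes had a median log2 ratio of -0.108, with 12 lower, among them Cyp1a2 at -0.454, Lect2 at -0.32, Cyp2e1 at -0.289 and Tbx3 at -0.218. The 13 measured periportal genes also had a median of -0.108, with 10 lower, among them Hsd17b6 at -0.33, Fbp1 at -0.242 and Cps1 at -0.176, while Aldh1b1 lay at 0.317. No gene of either list was 1.5-fold apart, and the medians of the lists for the 2 zones were equal. Of the other Cyp2 genes 9 were measured, with a median of -0.023 and none 1.5-fold apart. The furthest from 0 after Cyp2j6 and Cyp2e1, given above, were Cyp2d9 at 0.137 and Cyp2d22 at 0.083.

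**Figure D4:**
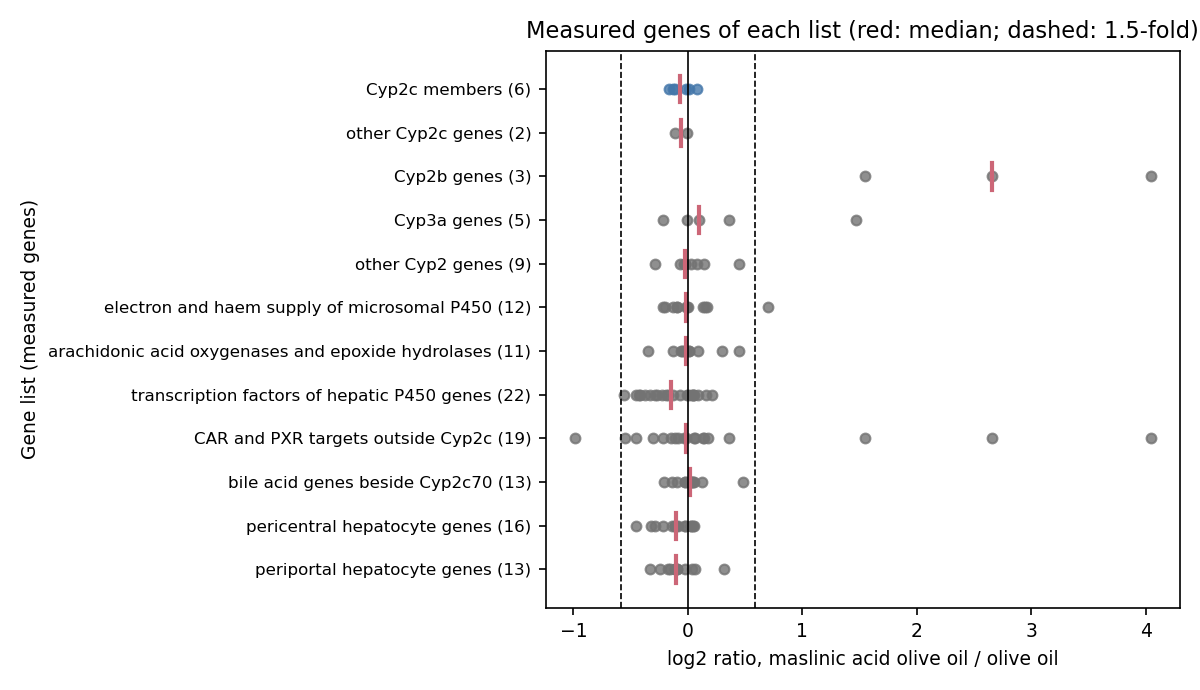
log2 ratio (maslinic acid olive oil over olive oil, 1 array each) of the measured genes of each list, with the number of genes in brackets, the median as a red bar and 1.5-fold as dashed lines. The Cyp2c members lie between -0.165 and 0.078, and apart from the Cyp2b genes, Cyp3a16, Cpox and Gadd45b every plotted gene lies inside the dashed lines.

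The genes on either side of the cluster were mostly dim. Of the 10 nearest genes named on the array, 5 on each side, 2 were measured. Pdlim1, a cytoskeletal adaptor gene and the nearest protein-coding gene beyond Cyp2c70, read 324.0 and 353.0, a log2 ratio of 0.124, and Plce1, a phospholipase gene on the other side, read 77.4 and 88.3, a log2 ratio of 0.19.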

How the data were processed

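Liver RNA was hybridised as biotin-labelled cRNA to 1-colour Affymetrix arrays, per the labels' protocols. The deposited values are 1 linear intensity per probe set and array, which the authors made with the MAS5 algorithm, per the submitters' processing notes. No MAS5 version or setting is given in the sources used here. The 2% trimmed mean was 200.1 on both arrays, so the intensities were used without rescaling. Genes were named from the platform annotation, which names no build; 20393 probe sets name 1 gene, 691 several and 1606 none. The 64 control probe sets were left out.

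Signals under 40 were set to 40, and log2 ratios are of the maslinic acid array over the olive oil array. A gene was represented by its brightest probe set and counted as measured where that reached 80 on at least 1 array. Of all probe sets, 48.4% and 48.2% lay under 40. The counts at 1.5-fold and 2-fold are descriptions, not tests. Named genes were all members, from each gene list (not the cell type marker lists) the 4 measured genes furthest from a log2 ratio of 0, the label checks and the flanking genes; exceptions are stated. The members and lists were chosen with earlier results of these data known. Promoters were aligned globally with Biopython 1.88, and the loess trend was fitted with statsmodels 0.14.6 (span 0.3). The steps were tested on simulated data. A comparison of proteins was planned and was not done, as no protein sequences were used here.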

Additional observations from a re-analysis of the deposited data

How the results depend on the processing

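The 9 alternatives were equal medians, quantile scaling, removal of a loess trend, a floor of 20 or 80, no minimum or a minimum of 160, the mean of all measured probe sets, and leaving out probe sets that can read several transcripts. In all 9, 0 of the measured members were 1.5-fold apart; with 1.1-fold as the size, chosen after seeing the data, 1 was. For the 6 measured members, each bright and read by 1 probe set, floor, minimum and probe set choice could not change the ratio, so only the 3 scalings tested it, and under these the ratios lay between -0.172 and 0.106. With a floor of 80, Cyp2c39 and Cyp2c55 went to 0, since both signals of each then lie under the floor. The members' median ranged from -0.071 (equal medians) to 0.002 (loess trend removed). The number of all measured genes 1.5-fold apart was 180 and dropped to 85 with a minimum of 160, where fewer genes, 4169, were measured. No paired analysis was possible because there is a single array per diet, and none could be left out. Without detection calls, the signal was the only guide to background.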
